A study of Mus musculus with 9 samples.

Results

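Opposite-strand transcripts, whose names join a neighbouring gene's symbol with "os" and sometimes a digit, were compared with the genes they are named after, called hosts here. The count table held 10 os entries and 9 hosts, so 19 of its 25965 entries, with Vax2 serving as host to both Vax2os1 and Vax2os2. Every entry was taken by its name as listed. All 10 os entries lay on the opposite strand of their host on the same chromosome. Hoxb3os was the single os entry with more than 7 counts in a library.

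Antisense and opposite-strand transcripts are made from the other DNA strand at or next to a gene. Some overlap the host's exons, some start back to back with it at a shared promoter region, and some lie inside an intron. Many accompany genes of developmental transcription factors, and several such transcripts are known to affect the host in the same cell, while for most no function is known. Of the 9 hosts, 7 encode homeodomain transcription factors that pattern the embryo, and 8 of the 10 pairs belong to them. The other two hosts, Dnm3 and Slc7a6, encode a dynamin GTPase and an amino acid transporter subunit.

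The libraries were made from the sciatic nerve, a peripheral nerve of axons and the Schwann cells that myelinate them, of C57BL/6 mice. The 3 groups were control littermates, PINCH1 mutants and PINCH2 mutants, and each group had 3 libraries, each from a pool of 4 nerves of 1 male and 1 female. PINCH1 and PINCH2 are LIM-domain adaptor proteins at integrin adhesions, encoded by Lims1 and Lims2. The sample labels give postnatal day 15 and the protocol day 14. How the mutants were made, and in which cells, was not given in the sources used here. Replicates are separate pools, so p-values measure the spread between pools.

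Library totals ran from 957828 to 1204964 counts. Lims1 had between 0 and 9 counts per library and Lims2 between 1 and 9, too few to check the labels. The Schwann lineage markers Sox10, S100b and Erbb3 all had counts and summed to 69.3 to 144 CPM (counts scaled to a common library size, with TMM factors) in controls, 53.3 to 104 in PINCH1 mutants and 67.8 to 111 in PINCH2 mutants. For myelinating Schwann cells, 6 of 7 reported markers, Mbp among them, were listed by name, and all 6 had counts. They summed to 8130 to 9023 CPM in controls, 6168 to 7241 in PINCH1 mutants and 6265 to 7143 in PINCH2 mutants. Both mutant groups lay below the controls in this sum without overlap. A sum is carried by its most abundant markers, and edgeR called 0 of the tested markers of this list in either mutant against controls. Of single entries tested over the whole table, 7.49% were lower in PINCH1 mutants than in controls without overlap. The same share for PINCH2 mutants is not given here. All 4 markers of nonmyelinating Schwann cells had counts and summed to 36.2 to 138 CPM in controls, 24.6 to 50.9 in PINCH1 mutants and 40.2 to 52.7 in PINCH2 mutants. All 3 endothelial markers had counts, with sums of 7.24 to 12.5 CPM in controls, 6.38 to 16.7 in PINCH1 mutants and 1.01 to 6.69 in PINCH2 mutants. The highest PINCH2 mutant sum was close to the lowest control sum, and sums this low rest on few counts. These 3 markers were each too low to be tested. The groups overlapped for the fibroblast markers (4 of 4 with counts, 303 to 744 CPM over all libraries). They also overlapped for the 2 of 3 macrophage markers listed by name, both with counts (483 to 663 CPM). Sums were low for muscle markers (2 of 3 with counts, at most 5.03 CPM, Acta1 at 0). So were those of neuronal markers (1 of 3 with counts, at most 0.912 CPM, Rbfox3 and Snap25 at 0). Of 2 erythroid markers 1 was listed by name, with at most 2.74 CPM. The 2 adipocyte markers, Adipoq and Plin1, were at 0 in all 9 libraries. The part of these sums in the genotype comparisons was not tested. Whether counting took strand into account, and in which sense, was not given in the sources used here. Where exons on opposite strands overlap, a count under 1 name cannot be told apart from transcription of the other entry. That holds for os entries, for their hosts and for the marker genes alike.

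Of the 10 os entries, 7 had 0 counts in every library, and of the 9 hosts, 4 had 0. Both entries of a pair were at 0 in 5 of the 10 pairs, a sixth pair had 1 count in all, and 4 pairs had at least 18 counts over the 9 libraries. A count in at least 1 library was found for 60.1% of all entries and for 8 of these 19. The os entries took 2594 counts together, 97.1% of them on Hoxb3os, and the hosts took 9419, of which 99.9% were on Pax6 and Hoxb3. The 4 pairs with counts differed in their balance: similar levels at Hoxb3, host alone at Pax6, and mostly the os entry at Slc7a6 and Dnm3.

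**Figure D1:**
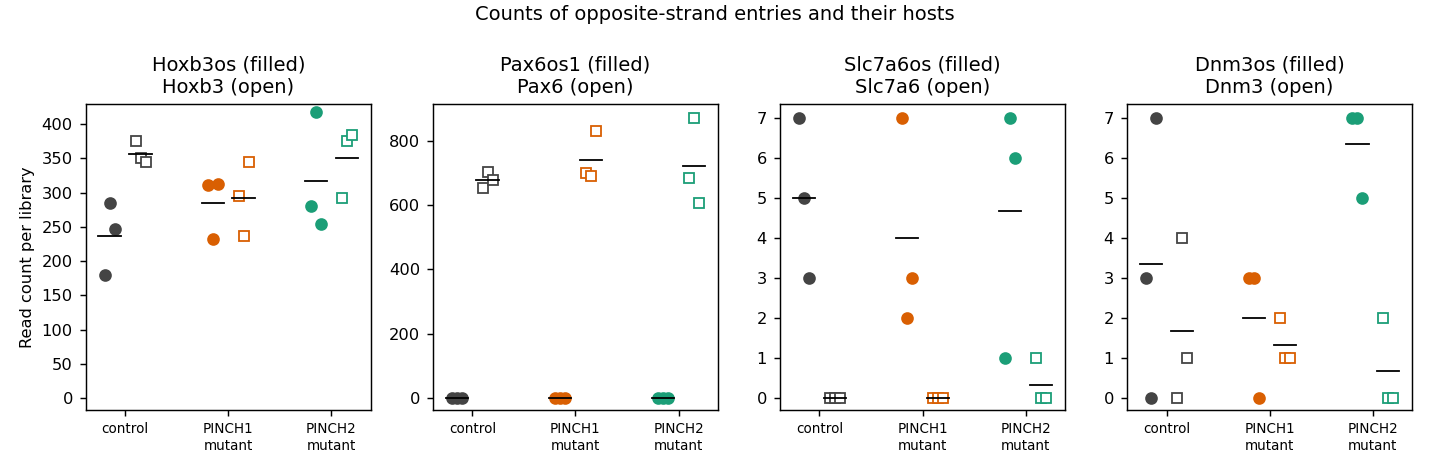
Read counts of the os entry (filled circles) and its host (open squares) in each library of the 3 genotypes, for the 4 pairs with at least 18 counts; black lines are group means, and each panel has its own linear axis. Hoxb3os and Hoxb3 are of similar size, Pax6os1 is at 0 beside 606 to 871 counts of Pax6, and the Slc7a6os and Dnm3os entries stay at or below 7 counts.

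Hoxb3os was the one os entry with at least 10 counts in every library. Hoxb3 is a homeobox gene of the HoxB cluster that helps to set position along the body axis, and Hoxb2 is its neighbour on the same strand with a related role. By the table's spans, Hoxb3os (ENSMUSG00000084844, minus strand of chromosome 11, 96345481 to 96354691 in GRCm38) runs from within Hoxb2 back into the end of Hoxb3 (ENSMUSG00000048763, plus strand, 96323326 to 96346685). In the GENCODE M21 annotation its exons overlap 2250 bases of Hoxb3 exons and 953 bases of Hoxb2 exons, together 76.2% of its 4201 exon bases. The table's spans differ from M21 here, since M21 ends Hoxb3 1245 bases later and carries Hoxb3os 2409 bases further into Hoxb3. M21 also starts Hoxb2 1107 bases earlier and ends it 1677 bases earlier, at 96354012, short of the Hoxb3os start. Of the 2250 bases, 1140 lie within both table spans of Hoxb3os and Hoxb3. The RefSeq start of Hoxb3os lies in a coding exon of Hoxb2, while the table and M21 start Hoxb3os further upstream, at 96354691. The stretch around the RefSeq start is shown because it is Hoxb2 protein code on 1 strand and holds the first bases of the RefSeq Hoxb3os on the other. It covers chr11:96353345-96353626 of GRCm38.p6, minus strand, with the first 50 bases of the RefSeq transcript in capitals. M21 counts the lowercase bases as Hoxb3os exon too.
Hoxb3os start: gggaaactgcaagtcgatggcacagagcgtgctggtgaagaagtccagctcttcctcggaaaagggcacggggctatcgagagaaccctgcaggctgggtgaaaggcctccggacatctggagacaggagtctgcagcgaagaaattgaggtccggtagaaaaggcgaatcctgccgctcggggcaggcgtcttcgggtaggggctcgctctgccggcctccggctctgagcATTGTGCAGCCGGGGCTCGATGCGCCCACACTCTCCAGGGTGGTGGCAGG

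**Figure D2:**
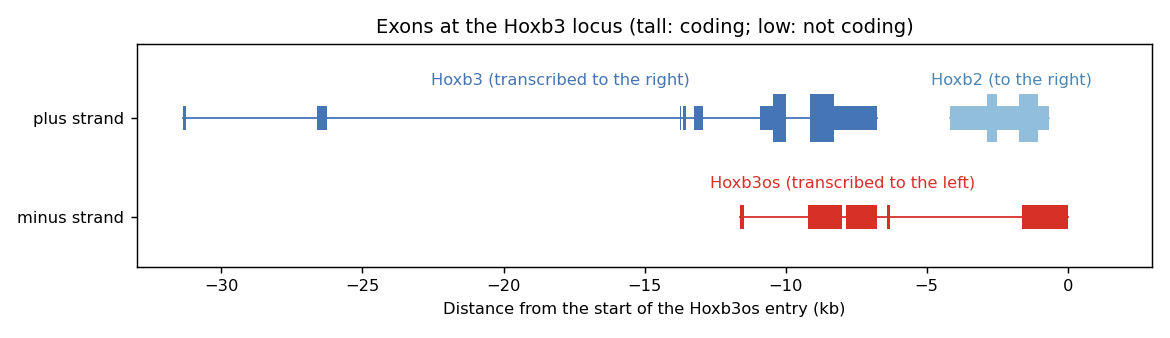
Exons of Hoxb3 and Hoxb2 (plus strand, transcribed to the right) and of Hoxb3os (minus strand, transcribed to the left) in M21, with the distance from the start of the Hoxb3os entry in kb on the horizontal axis; tall boxes are coding. The Hoxb3os exons sit over the last Hoxb3 exon and over the end of Hoxb2 nearest to the Hoxb3os start.

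Hoxb3os was counted 179, 285 and 247 times in control libraries, 311, 232 and 312 times in PINCH1 mutant libraries, and 280, 418 and 254 times in PINCH2 mutant libraries. Hoxb3 was counted 375, 350 and 345 times in control libraries, 295, 236 and 344 times in PINCH1 mutant libraries, and 292, 375 and 384 times in PINCH2 mutant libraries. The host was higher in every control, and in the mutants the order differed from library to library. Hoxb2 was counted 168, 129 and 145 times in control libraries, 137, 106 and 138 times in PINCH1 mutant libraries, and 126, 181 and 185 times in PINCH2 mutant libraries. Per kb of exon it was below Hoxb3 in every library, and below Hoxb3os in every library but control 1.

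Over the 9 libraries Hoxb3os made up 45.7% of the counts of the pair, with an exact 95% binomial interval of 44.3% to 47.0%. By library the share ran from 32.3% (28.4% to 36.4%) in control 1 to 52.7% (49.2% to 56.2%) in PINCH2 mutant 2. These intervals cover counting error only, and those of the lowest and highest library do not meet. The mean share was 39.6% ± 6.54 (SD, n = 3) in controls, 49.5% ± 1.88 in PINCH1 mutants and 47.2% ± 6.63 in PINCH2 mutants. The exon lengths of both are close, at 4.20 kb for Hoxb3os and 4.25 kb for Hoxb3, so the order per kb is nearly that of the counts. Per kb of exon, Hoxb3os was at 53.6 ± 9.98 CPM in controls, 64.1 ± 3.02 in PINCH1 mutants and 71.5 ± 11.3 in PINCH2 mutants (SD, n = 3 each). Hoxb3 was at 80.5 ± 9.57, 64.6 ± 2.54 and 79.1 ± 10.1 CPM per kb in the same groups.

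PINCH1 mutants were set against controls to see which of these entries, and which os-to-host balances, differed when PINCH1 is mutated. Hoxb3 was at 275 ± 10.8 CPM in PINCH1 mutants and 342 ± 40.7 in controls (SD, n = 3 each), and the groups did not overlap. Hoxb3os was at 269 ± 12.7 CPM against 225 ± 41.9 in controls, and the groups overlapped. In edgeR's quasi-likelihood test the log2 fold change was -0.32 (SE 0.17, adjusted p = 0.778) for Hoxb3 and 0.26 (SE 0.18, adjusted p = 0.862) for Hoxb3os. Neither passed the threshold of 0.05. The value for Hoxb3os was 0.14 without control 1 and 0.41 without control 2. In whole nerve, fewer cells with a transcript and less of it per cell cannot be told apart. The filter on low counts kept 3 of the 19 entries, Hoxb3os, Hoxb3 and Pax6; 0 of these 3 were called by edgeR, DESeq2 or limma-voom and 0 had an unadjusted p under 0.05. Over all 4738 tested entries, 0.0633% were called and 6.37% had such a p. Of all tested entries, 7.49% were lower in PINCH1 mutants with no overlap, as Hoxb3 was.

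The ratio of Hoxb3os to Hoxb3 counts within a library does not depend on library scaling. Control libraries had ratios of 0.477, 0.814 and 0.716, PINCH1 mutant libraries 1.05, 0.983 and 0.907, and PINCH2 mutant libraries 0.959, 1.11 and 0.661. Each PINCH1 mutant library lay above each control, while the PINCH2 mutants spread across both. The log2 ratio was 0.58 higher in PINCH1 mutants than in controls (SE 0.27, 95% interval 0.00 to 1.17). Its unadjusted p was 0.0496 in a limma fit over 1447 opposite-strand pairs, and the adjusted p was 0.923, so it did not pass. Without control 1, which had the lowest ratio, the difference was 0.36. Limma called 0% of the 1447 pairs, 5.04% had an unadjusted p under 0.05, and 6.01% had a higher ratio in PINCH1 mutants without overlap. The fit holds 67 further pairs that M21 names as opposite-strand transcripts. Their median difference was 0.36, with 45 higher and 22 lower and 0 called. In PINCH2 mutants against the same controls it was 0.22, with 42 higher and 25 lower and 0 called. The same split over all 1447 pairs is not given here, so these medians are not shown to be particular to the 67. Nor are the 67 independent, since hosts such as Usp46 and Chn1 stand in more than 1 pair.

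Against Hoxb2, the other gene that it overlaps, the ratio of Hoxb3os was 1.66 ± 0.57 in controls, 2.24 ± 0.045 in PINCH1 mutants and 1.97 ± 0.52 in PINCH2 mutants (SD, n = 3 each). The log2 difference between PINCH1 mutants and controls was 0.49 (SE 0.31, limma adjusted p = 0.935). The ratio of Hoxb3 to Hoxb2 varied least, from 2.07 to 2.71 over all 9 libraries, with a coefficient of variation of 9.09%. That of Hoxb3os to Hoxb3 was 24.1% and that of Hoxb3os to Hoxb2 was 23.6%.

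**Figure D3:**
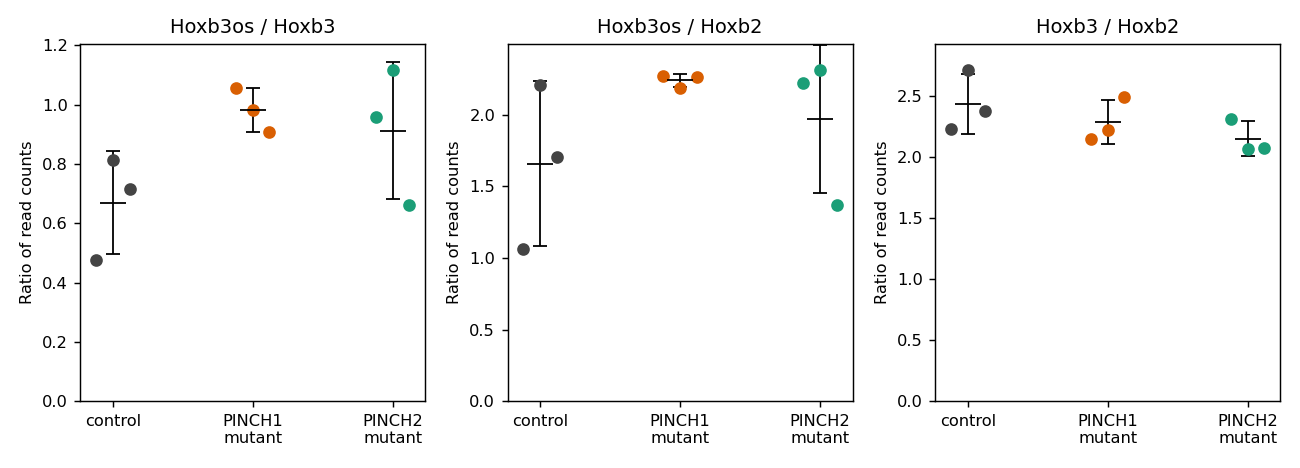
Ratios of read counts within each library for the 3 pairings at the Hoxb3 locus, by genotype; points are libraries, and bars are mean and SD of 3. In the left panel the PINCH1 mutants, at 0.907 to 1.05, lie above the controls, at 0.477 to 0.814; in the right panel all libraries lie between 2.07 and 2.71.

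In PINCH2 mutants against controls, Hoxb3os was at 300 ± 47.4 CPM against 225 ± 41.9, a log2 fold change of 0.42 (SE 0.18). Its unadjusted edgeR p was 0.0315 and its adjusted p 0.999. Hoxb3 was at 336 ± 43.1 CPM, with a log2 fold change of -0.02 (SE 0.17, edgeR adjusted p = 0.999), and the groups overlapped for both entries. Of the 3 members tested, 0 were called by edgeR, DESeq2 or limma-voom and 1, Hoxb3os, had an unadjusted p under 0.05, while 0.0211% of all tested entries were called and 4.26% had such a p. The log2 ratio of Hoxb3os to Hoxb3 differed by 0.45 (SE 0.27, 95% interval -0.14 to 1.03, unadjusted p = 0.120 and adjusted p = 0.9996 in the limma fit over all pairs). It was 0.22 without control 1 and 0.29 without PINCH2 mutant 2. The same 3 controls enter both mutant comparisons.

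Between the mutants, Hoxb3 was lower in PINCH1 mutants than in PINCH2 mutants with no overlap, at a log2 fold change of -0.29 (SE 0.17, edgeR adjusted p = 0.884), and -0.18 without PINCH2 mutant 3. Of all tested entries, 5.57% were lower without overlap in this comparison. Hoxb3os differed by -0.16 (SE 0.18, edgeR adjusted p = 0.978), and the log2 ratio by 0.14 (SE 0.27, 95% interval -0.45 to 0.72, limma adjusted p = 0.986). Without PINCH2 mutant 2 these values were -0.02 and 0.30, and without PINCH2 mutant 3 they were -0.27 and -0.08. The tests called 0 of the 3 members with edgeR, DESeq2 or limma-voom, with 0 at an unadjusted p under 0.05, against 0.0844% and 6.35% of all tested entries.

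Pax6 encodes a paired and homeodomain transcription factor known for eye, brain and pancreas development. It was counted 652, 701 and 678 times in control libraries, 699, 691 and 829 times in PINCH1 mutant libraries, and 683, 871 and 606 times in PINCH2 mutant libraries. Pax6os1 had 0 counts in all 9 libraries, which allows up to 3 counts in each. All groups overlapped for Pax6. Its log2 fold change was 0.12 (SE 0.15, edgeR adjusted p = 0.937) in PINCH1 mutants and 0.09 (SE 0.15, adjusted p = 0.999) in PINCH2 mutants against controls, and 0.04 (SE 0.15, adjusted p = 0.993) between the mutants. With 1 library left out, the first ran from 0.041 without PINCH1 mutant 2 to 0.19 without PINCH1 mutant 1, and the second from 0.030 without PINCH2 mutant 2 to 0.17 without PINCH2 mutant 3.

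Pax6os1 (ENSMUSG00000086029, minus strand of chromosome 2, 105536080 to 105670330) starts 1434 bp inside Pax6 (ENSMUSG00000027168, plus strand, 105668896 to 105703160), and no exons of the pair overlap in M21. The counts under the name Pax6 have another opposite-strand neighbour at the far end. The table's span of Pax6 runs 5796 bases past the last M21 Pax6 exon, and there it covers the whole 1835-base last exon of Elp4 (105701027 to 105702861), a subunit gene of the Elongator complex on the minus strand. Elp4 itself had between 0 and 5 counts per library, 13 in all. Which strand or which end of the span the Pax6 counts came from cannot be told from the table, so the entry is not shown to measure Pax6 transcripts.

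Slc7a6os is a protein-coding gene in M21 despite its name, and Crxos1 is the other such entry among the 10. Slc7a6os (ENSMUSG00000033106, minus strand of chromosome 8, 106200438 to 106210933) faces the end of Slc7a6 (ENSMUSG00000031904), 1733 bp away. It was counted 7, 5 and 3 times in control libraries, 7, 2 and 3 times in PINCH1 mutant libraries, and 1, 7 and 6 times in PINCH2 mutant libraries. Slc7a6 had 1 count, in PINCH2 mutant 1, where Slc7a6os had 1 as well, and 0 elsewhere. The os entry was above its host per kb in all 9 libraries, and its share of the pair's 42 counts was 97.6% (exact 95% interval 87.4% to 99.9%). The start of Slc7a6os lies 2 bp from that of Prmt7, an arginine methyltransferase gene on the other strand. Prmt7 was counted 9, 20 and 18 times in control libraries, 24, 16 and 24 times in PINCH1 mutant libraries, and 14, 31 and 18 times in PINCH2 mutant libraries; per kb it was above Slc7a6os in every library but control 1. Slc7a6os and Slc7a6 were both removed by the filter on low counts and have no genotype test.

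Dnm3os lies whole inside an intron of Dnm3 and is known as the host transcript of miR-199a and miR-214. Dnm3os (ENSMUSG00000078190) spans 162217623 to 162225550 on the plus strand of chromosome 1, and Dnm3 (ENSMUSG00000040265) spans 161982453 to 162478034 on the minus strand. The microRNAs were not measured in these libraries and are not listed in the table. They are printed because a Dnm3os transcript carries their hairpins; RefSeq (GRCm38.p6) places 4 mature sequences inside the entry, with the seed, bases 2 to 8, in capitals. Each of the 4 has a seed of its own.
mmu-miR-199a-5p: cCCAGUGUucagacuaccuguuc
mmu-miR-199a-3p: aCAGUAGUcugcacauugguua
mmu-miR-214-5p: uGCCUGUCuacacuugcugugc
mmu-miR-214-3p: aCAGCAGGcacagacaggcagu

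Dnm3os was counted 3, 0 and 7 times in control libraries, 3, 3 and 0 times in PINCH1 mutant libraries, and 7, 7 and 5 times in PINCH2 mutant libraries. Dnm3 was counted 0, 4 and 1 times in control libraries, 2, 1 and 1 times in PINCH1 mutant libraries, and 2, 0 and 0 times in PINCH2 mutant libraries. Each PINCH2 mutant library was above each PINCH1 mutant library for Dnm3os, and the controls spanned both. The filter removed Dnm3os and Dnm3, so there is no test at the depth of the main fit. Among the entries that the filter kept, 5.57% were lower without overlap in PINCH1 than in PINCH2 mutants. Without the filter the log2 fold change of Dnm3os between PINCH1 and PINCH2 mutants was -1.58 (SE 1.19, edgeR adjusted p = 0.825). All nonzero Dnm3os counts were odd numbers. Low odd values were common in the whole table, at 83.6% of values between 1 and 4 and 50.1% of those above 50, and no meaning is read here into a difference of a few counts. Over all libraries Dnm3os took 76.1% of the pair's 46 counts. The exact 95% interval, 61.2% to 87.4%, treats each count as an independent read, which is not shown here. Dnm3os was not the highest entry opposite Dnm3. Gm10176, whose exon overlaps 355 bases of Dnm3 exons in M21, had 14 to 43 counts per library, 216 in all.

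The remaining 6 pairs gave 1 count in 9 libraries, an Emx2 count in PINCH2 mutant 3. Dlx6 and Dlx6os2, Vax2 with Vax2os1 and Vax2os2, Crx and Crxos1, and Six3 and Six3os1 were at 0 throughout, as was Emx2os. Dlx6, Vax2, Crx, Six3 and Emx2 encode homeodomain factors of the forebrain, eye or craniofacial skeleton. Vax2os2 starts 937 bp inside Vax2, and Six3os1 5803 bp inside Six3 with 106 overlapping exon bases. By the table's spans, Vax2os1, Emx2os, Crxos1 and Dlx6os2 start outside their hosts and run away from them, with gaps of 331, 54, 2648 and 2949 bp. Other annotations differ for 3 of these 4. M21 starts Emx2 earlier, so that 264 exon bases of Emx2os and Emx2 overlap, and gives the identifier of Vax2os1 a span that reaches into Vax2. RefSeq places the start of a transcript named Dlx6os2 inside Dlx6. A count of 0 allows up to 3 counts per library, so these values limit the level and do not show absence.

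Zfp652os, a name of the same form, is not a name in this table. By its gene identifier in M21 it is the entry 1110035M17Rik, which had 1 count, in PINCH1 mutant 3. Its host Zfp652, a zinc finger gene, was counted 65, 68 and 65 times in control libraries, 80, 98 and 136 times in PINCH1 mutant libraries, and 134, 112 and 100 times in PINCH2 mutant libraries. Both mutant groups lay above the controls without overlap, as did 6.16% and 4.24% of all tested entries. The log2 fold changes of 0.65 (SE 0.24, edgeR adjusted p = 0.648) and 0.82 (SE 0.24, adjusted p = 0.999) did not pass.

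M21 gives names of this form to the identifiers of 264 further pairs that the table lists under other names. These were set beside the 10 pairs as a description, chosen after the table was seen. Among 109 such pairs with overlapping exons and at least 18 counts, the os entry was above its host per kb of exon in all 9 libraries in 76 (69.7%), and the host was above in 14. Among 47 pairs without exon overlap, the os entry was above in 5 (10.6%) and the host in 16. Other noncoding entries over protein-coding ones had the first above in 539 of 800 pairs (67.4%). Of the 4 named pairs with counts, the os entry was above in 1, Slc7a6os, the host in 1, Pax6, and neither in 2, Hoxb3 and Dnm3. Hoxb3 is the one among these 4 with exon overlap. The exon lengths are those of M21, which may differ from the annotation the counts were made with.

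**Figure D4:**
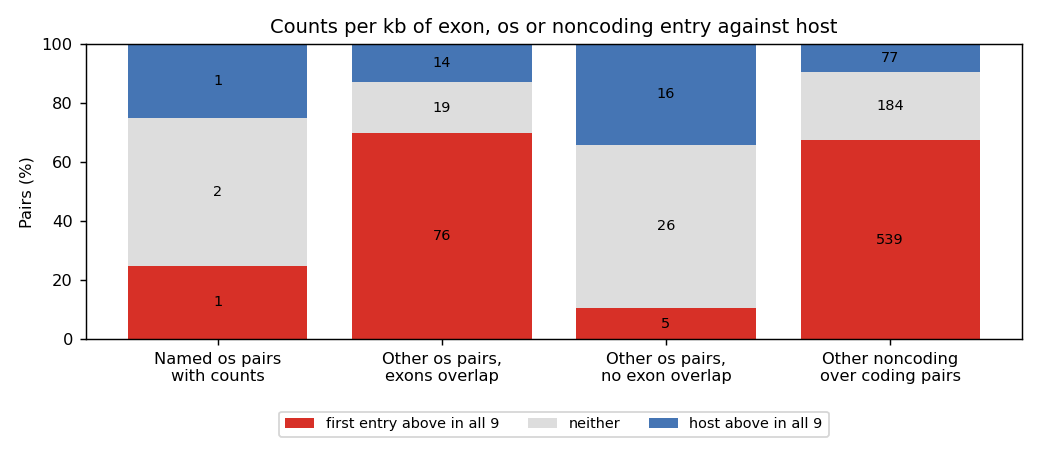
Share of pairs in which the os (or noncoding) entry, or its host, had the higher count per kb of exon in all 9 libraries, for pairs with at least 18 counts; numbers in the bars are pairs. The os entry leads in 76 of 109 other os pairs with overlapping exons and in 5 of 47 without.

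Other named antisense and overlapping transcripts gave the wider setting. Of 20 such names, 18 were in the table and 9 were tested, and edgeR with the filter called 0 of the 9 in any comparison. In PINCH1 mutants against controls 5 of the 9 were higher and 4 lower, with a median log2 fold change of 0.10, against -0.02 over all 4738 tested entries. In PINCH2 mutants against controls 4 were higher and 5 lower, with a median of -0.06 against 0.00. Nespas, antisense at the imprinted Gnas locus, was counted 47, 154 and 75 times in controls, 274, 131 and 191 times in PINCH1 mutants, and 124, 167 and 121 times in PINCH2 mutants. In CPM each PINCH1 mutant library was above each control, as for 6.16% of all tested entries. The lowest PINCH1 mutant, at 149, was close to the highest control, at 145. PINCH2 mutants and controls overlapped for Nespas. Against controls its log2 fold change was 1.09 (SE 0.32, edgeR adjusted p = 0.443) in PINCH1 mutants and 0.59 (SE 0.32, adjusted p = 0.999) in PINCH2 mutants. Without the filter on low counts, edgeR called Nespas in the first of these comparisons (adjusted p = 0.00413) and not in the second (adjusted p = 0.852). That fit called 15 entries in the first comparison, against 3 with the filter, so the call of Nespas depends on the filter. Of 17 genes listed for RNA processing, decay or silencing, such as Dicer1, Xrn1 and Ezh2, 15 were in the table, 4 were tested and 0 were called. The 4 were Dgcr8, Exosc3, Hnrnpu and Upf1, with a median log2 fold change of -0.16 in PINCH1 and 0.07 in PINCH2 mutants against controls.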

How the data were processed

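Total RNA libraries of the 9 nerve pools were analysed from the count table that the authors deposited. Its whole-number values were taken as unscaled read counts per gene entry. Why low values were mostly odd was not tested, and the exact binomial intervals treat each count as an independent read. Per the submitters' processing notes, Trim Galore 0.4.2, cutadapt 1.9.1, HISAT2 2.0.5 and build GRCm38 were used; the counting tool, annotation and strand setting were not given in the sources used here. Members were taken by name, and 17 of 19 matched GENCODE M21 by identifier, whose merged exon lengths gave counts per kb and whose exons were overlapped with bedtools 2.31.1. The members, lists and comparison pairs were chosen with earlier results of these data known.

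Genotypes were compared with edgeR 4.0.16 (quasi-likelihood test, robust, TMM scaling, filterByExpr, all 9 libraries, Benjamini-Hochberg over 4738 entries, threshold 0.05) in R 4.3.3. Pair ratios, as log2 with a pseudocount of 0.5, were tested with limma 3.58.1 over the 1447 opposite-strand pairs with at least 18 counts of each entry and 90 of both. On simulated counts for PINCH1 mutants against controls, edgeR recovered 37.2% of 94 entries changed 2-fold and 77.9% of 95 changed 4-fold among 4483 entries. The ratio fit recovered 7.41% of 108 and 52.6% of 116 pairs, among 1447. Of 120 simulated edgeR calls 11 were on unchanged entries, and of 74 ratio calls 1 was on an unchanged pair. The edgeR simulation drew each entry with its own spread and the ratio simulation used 1 common spread, so their rates are not directly comparable. All pairs are named; entries outside them were named as exon or span neighbours or for their list. Alternatives were RLE and upper-quartile scaling, DESeq2 1.42.0, limma-voom, other filters and minimums, a pseudocount of 2, a threshold of 0.01, a replicate block, 6 libraries only, and each library left out. 1 listed marker gene is not reported here.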

Additional observations from a re-analysis of the deposited data

How the results depend on the processing

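The number of members called was 0 in all 18 alternatives of each comparison, and the number of pair ratios called was 0 in all 16. Over all tested entries, the 3 called in PINCH1 mutants against controls became 1 at a threshold of 0.01, with limma-voom or with only the 6 libraries compared, 7 with DESeq2, 15 with no filter and 16 with the filter of 1 CPM in 3 libraries; leaving out 1 library gave 1 to 9. The 1 entry called in PINCH2 mutants against controls became 0 at a threshold of 0.01, with limma-voom and with only the 6 libraries compared, and 0 to 1 with a library left out. The 4 called between the mutants became 7 with DESeq2, 20 with no filter, 27 with the CPM filter and 8 with only the 6 libraries, and 3 to 9 with a library left out. The cause of these moves was not tested.

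The replicate numbers were not treated as pairing the libraries, since not every same-numbered pair had deviations correlated above 0.1 (-0.11 to 0.25). As a hint from the data, 5 of 9 libraries correlated best with one of their own number. With the replicate number as a block, 5 entries were called in PINCH1 mutants and 0 in PINCH2 mutants against controls.

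Directions that reversed did so only with a library left out, for values far from the threshold. The log2 fold change of Hoxb3 in PINCH2 mutants against controls ran from -0.13 without PINCH2 mutant 3 to 0.067 without control 1, and was also above 0 without PINCH2 mutant 1 (0.033) or 2 (0.011). That of Pax6 between the mutants ran from -0.046 without PINCH2 mutant 3 to 0.11 and was -0.038 without PINCH1 mutant 2. The Hoxb3os to Hoxb3 ratio difference between the mutants ran from -0.078 without PINCH2 mutant 3 to 0.30. The single pair with the os entry above its host in all 9 libraries became 0 on raw counts, with a minimum of 90 counts or at a 2-fold margin, and 2 when 5 of 9 libraries sufficed. The filter on low counts removed 16 of the 19 entries, and for these low depth and low expression cannot be told apart. For the ratios, 7.41% of 2-fold changes were recovered in simulated pairs of at least 18 counts per entry, with 1 common spread. No separate rate is given for Hoxb3os and Hoxb3, which had 2518 and 2996 counts in all.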

Other observations

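Hoxb3 and Hoxb2 do not overlap each other, and each overlaps Hoxb3os. In TMM-scaled CPM, Hoxb3 and Hoxb2 were both at their 2 highest values in control 1 (388 and 174) and PINCH2 mutant 3 (386 and 186), picked here after the values were seen. Hoxb3os was at 185 CPM in the first of these libraries, its lowest value, and at 255 in the second.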
